A study of Rattus norvegicus with 15 samples.

Results

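The genes of the rat major histocompatibility complex (MHC) and of antigen presentation were followed across 15 arrays of olfactory epithelium. Members were all non-control probes whose gene name on the array began with RT1, the name of the rat MHC, or was B2m, Cd74, Tap1, Tap2, Tapbp, Psmb8, Psmb9 or Ciita. This rule took 55 of the 41012 probes, or 73 of the 43379 spots, and they carried 38 of the 35581 gene names on the array. The name Ciita had 0 probes. By role, 33 probes were for class I heavy chains (24 genes), 4 for the class I light chain, 9 for class II chains (4 genes), 1 for the class II chaperone, 2 for the class II peptide editor DO, 2 for immunoproteasome subunits and 3 for peptide transport and loading. The last, RT1-Ke4, is listed today as the zinc transporter Slc39a7, which lies among the MHC genes without presenting peptide.

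RNA came from the olfactory epithelium of 8 Brown Norway rats aged 6 weeks, 4 males (rats 1, 2, 5 and 6) and 4 females (rats 3, 4, 7 and 8), which were given no treatment. Each rat gave 1 array per nostril, A and B, except male 1, which gave nostril A alone. The rats had been bought from 2 suppliers, and the labels used here do not give the supplier of each rat. The sample left out was a left one, so nostril A of male 1 was the right side, but the sides are not given for the other rats. The rat was the unit of replication, so p-values between the sexes measure the spread between these rats.

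Cells load peptides on MHC molecules and show them to T cells. In the class I branch the proteasome, with its inducible subunits Psmb8 and Psmb9, cuts cytosolic proteins, the transporter Tap1 and Tap2 carries the peptides into the endoplasmic reticulum, and Tapbp (tapasin) bridges it to a heavy chain paired with B2m. Most nucleated cells can use this branch. In the class II branch, paired alpha and beta chains are escorted by Cd74, the invariant chain, and their peptides are exchanged by DM, which DO restrains. Class II genes are known mainly from dendritic cells, macrophages and B cells, and DO above all from B cells.

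A level is given as the log2 of the processed signal over the median signal of its array, so that 0 is the array median and a difference of 1 is a doubling. Values were held at a floor of -3.32. A probe was called detected on an array where its signal was well above background, expressed when detected on at least 11 arrays and weakly expressed when detected on 1 to 10. The arrays had medians of 57.4 to 83.4 intensity units and detected between 26233 and 28741 probes each. They lay on 4 slides. Rats 1 to 4 were on slides 1 and 2 and rats 5 to 8 on slides 3 and 4, so a difference between these sets of rats cannot be told apart from a difference between the slides. Slides 2 and 4 held females only and slide 3 males only, so sex and slide can hardly be told apart either. Slide 1 alone held both sexes, with males 1 and 2 and nostril A of female 3, whose nostril B was on slide 2. A sex difference with slide as a block therefore rests on slide 1, whose only female array was 3A. The olfactory neuron markers Omp, Gnal, Cnga2, Adcy3 and Gap43 were expressed, 5 of 5, with a summed level between 1450 and 1690 array medians in each rat, and 3 of 3 sustentacular cell markers with a probe were expressed too. In whole tissue, fewer cells of a type and less RNA per cell cannot be told apart.

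Heavy chain genes are near copies of each other, and this limits what a probe name says. All probes had 60 bases. The following probes are shown because they carry the names discussed below while sharing sequence. The probes named RT1-A2 and RT1-CE2 share an unbroken run of 29 bases, in capitals.
RT1-A2, A_44_P184753: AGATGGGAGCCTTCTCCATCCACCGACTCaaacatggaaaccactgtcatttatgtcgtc
RT1-CE2, A_44_P107372: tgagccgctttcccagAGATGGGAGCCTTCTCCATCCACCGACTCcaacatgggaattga

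Of the probes named RT1-M6-2, a nonclassical heavy chain gene, 1 was detected on every array and the other on none. The detected probe matches the RT1-CE1 probe at 48 of 59 aligned bases, in capitals. The undetected one is set below them.
RT1-M6-2, A_44_P309052: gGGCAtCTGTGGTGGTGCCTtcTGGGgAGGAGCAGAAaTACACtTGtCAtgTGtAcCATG
RT1-CE1, A_44_P513029: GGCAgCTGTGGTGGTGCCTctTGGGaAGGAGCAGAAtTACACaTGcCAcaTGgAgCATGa
RT1-M6-2, A_44_P426792: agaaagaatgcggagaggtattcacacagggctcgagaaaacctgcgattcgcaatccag

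Runs of at least 20 bases also joined RT1-CE1 with RT1-CE12 (27 bases), RT1-A3 with RT1-CE10 (22), RT1-Aw2 with RT1-CE2 (22) and RT1-CE3 with RT1-CE4 (20). The annotation on the array lists 1 to 3 further RT1 genes for 8 member probes. Values of heavy chain probes are therefore given by probe, and which gene of the family they measured is uncertain. Among class II genes, RT1-Ba had a detected and an undetected probe, identical at 49 of 54 aligned bases, in capitals.
RT1-Ba, A_44_P128248 (detected): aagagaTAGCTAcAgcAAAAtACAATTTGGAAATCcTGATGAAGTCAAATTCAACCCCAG
RT1-Ba, A_44_P194167 (undetected): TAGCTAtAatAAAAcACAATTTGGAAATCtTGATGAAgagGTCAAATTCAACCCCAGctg

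The class II chain genes had their highest and lowest rat means in the same rats, as described below, and their promoters are shown for that reason. Class II promoters are known for a conserved stretch that ends in the Y box, the binding site of NF-Y. Promoter sequences came from RefSeq (assembly GRCr8) for 32 of the 38 member genes. The letters CTGATTGG were searched on both strands in the 250 bases before the start and occurred in 1068 of 33469 promoters (3.19%). They occurred in 4 of 4 class II chain genes, in 1 of 2 DO genes and in 7 of 18 heavy chain genes, while Cd74 had no match in this window. The lines give the 50 bases before the motif, the motif in capitals and 10 bases after it, on the strand of the gene.
RT1-Da, chr20:4515313-4515380, + strand: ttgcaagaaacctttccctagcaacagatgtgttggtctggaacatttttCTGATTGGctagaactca
RT1-Db1, chr20:4560228-4560295, - strand: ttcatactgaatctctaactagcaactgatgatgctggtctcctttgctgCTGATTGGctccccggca
RT1-Ba, chr20:4576961-4577028, + strand: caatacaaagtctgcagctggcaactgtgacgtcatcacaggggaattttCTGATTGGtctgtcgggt
RT1-Bb, chr20:4604165-4604232, - strand: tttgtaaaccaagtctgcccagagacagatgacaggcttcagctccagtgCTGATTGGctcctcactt
RT1-DOa, chr20:4758516-4758583, - strand: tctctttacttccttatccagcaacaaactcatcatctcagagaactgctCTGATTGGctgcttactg

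The motif began 52 bases before the start of RT1-Da, 83 before RT1-Db1, 46 before RT1-Ba, 64 before RT1-Bb and 110 before RT1-DOa, and RT1-DOb had no match in this window. The core of the interferon response element, GAAANNGAA, occurred in 8.12% of all promoters and in those of Tap1, Tap2, Tapbp, B2m, RT1-N3 and RT1-S3. The palindrome GGGATTCCC, a kappa B element, occurred in 0.272% of all promoters and in those of the heavy chain genes RT1-A2, RT1-A3, RT1-CE4, RT1-CE10 and RT1-CE16. The shorter ATTGG, which lies inside the Y box, occurred in 34% of all promoters. Tap1 and Psmb9 start 457 bases apart on opposite strands of chromosome 20. A match is a run of letters and no measurement of binding.

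Most of the antigen presentation probes were detected in this tissue. Of the 55 probes, 46 (83.6%) were detected on all 15 arrays, against 61.3% of all probes, 4 on 1 to 3 arrays and 5 on none. Every gene of the class I branch outside the heavy chains had all its probes expressed, as had Cd74. Class II chains had 8 of 9 probes expressed, and heavy chains 27 of 33. The 46 probes detected on all arrays, with mean levels from -0.60 to 8.94, entered the tests, in which 27574 probes took part.

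The undetected probes were RT1-M2, RT1.M4_predicted, RT1-M10-1, the second RT1-M6-2 probe and the second RT1-Ba probe. RT1-M10-1 belongs to a family whose mouse relatives are known from vomeronasal neurons. RT1-CE6 was detected on 3 arrays, nostril B of male 2 and both nostrils of female 4, at -2.77, -2.65 and -2.32. RT1-T24-2 was detected on 1 array, nostril B of female 8, at -0.39, and on the other 14 arrays its signal lay between the floor and -2.99.

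Class II genes stood higher in male 6 than in any other rat. For Cd74, whose probe lies on chromosome 18, bases 56837700 to 56837759 of the rn3 build, the males had levels of 7.11 (male 1), 7.12 (male 2), 7.31 (male 5) and 8.02 (male 6). The females had 7.21 (female 3), 7.22 (female 4), 7.36 (female 7) and 7.44 (female 8). Male 6 was above all others, and the other 7 rats lay within one narrow band in which the sexes overlapped. The range over the 8 rats was 0.91, or 1.88-fold.

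The alpha and beta chains of the RT1.D molecule followed the same order at its ends. RT1-Da (bases 4641331 to 4641390 of chromosome 20 in rn3) had levels of 4.97, 5.09, 5.20 and 5.68 in males 1, 2, 5 and 6, and of 5.18, 5.31, 5.33 and 5.41 in females 3, 4, 7 and 8. Male 6 was again the highest and male 1 the lowest, with every female between them. The other RT1-Da probe (A_44_P367688) had 2.92, 3.04, 3.16 and 3.88 in those males and 3.24, 3.30, 3.29 and 3.36 in those females. RT1-Db1 (A_44_P130516) had 5.70, 5.96, 5.97 and 6.50 in males 1, 2, 5 and 6 and 5.89, 5.79, 6.05 and 5.93 in females 3, 4, 7 and 8.

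The chains of the RT1.B molecule did the same. RT1-Ba (A_44_P128248) had levels of 1.83, 1.88, 1.99 and 2.64 in males 1, 2, 5 and 6 and of 2.08, 2.11, 2.06 and 2.04 in females 3, 4, 7 and 8. RT1-Bb (A_44_P552452) had 3.24, 3.55, 3.36 and 4.02 in those males and 3.68, 3.90, 3.50 and 3.51 in females 3, 4, 7 and 8. For this RT1-Bb probe female 4 came next to male 6. The other (A_44_P500803) had 1.12, 1.44, 1.57 and 2.09 in the males and 1.48, 1.34, 1.44 and 1.29 in the females, each in order of rat number. Here male 6 was again the highest and male 1 the lowest. Over the class II chain probes and Cd74, male 6 had the highest of the 8 rat means for 9 of 9 and male 1 the lowest for 9 of 9. Male 6 was the highest rat for 13.8% of all tested probes and for 36 of the 46 members, and male 1 the lowest for 18.9% of all tested probes and 14 members.

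Much of the height of male 6 came from nostril B. For Cd74 its nostrils had levels of 7.74 (6A) and 8.30 (6B), against 6.96 to 7.62 on the 13 arrays of other rats. Both nostrils of male 6 were above every other array for Cd74, with 6B above 6A by 0.56. For RT1-Bb (A_44_P552452) 6B had 4.46 and 6A 3.58, and 6A lay inside the range of 3.24 to 3.94 on the other arrays. Array 6B was above all 13 arrays of other rats for 9 of the 9 class II and Cd74 probes and for 36 of all 46 members, against 14.1% of all tested probes. Array 6A was above those 13 arrays for 5 of the 9 and for 21 of all 46 members. The share of all tested probes was not taken for 6A. In linear terms 6B was 1.57 to 2.08 times the median of the other rats' arrays for these 9 probes, and 6A 1.04 to 1.37 times.

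**Figure D1:**
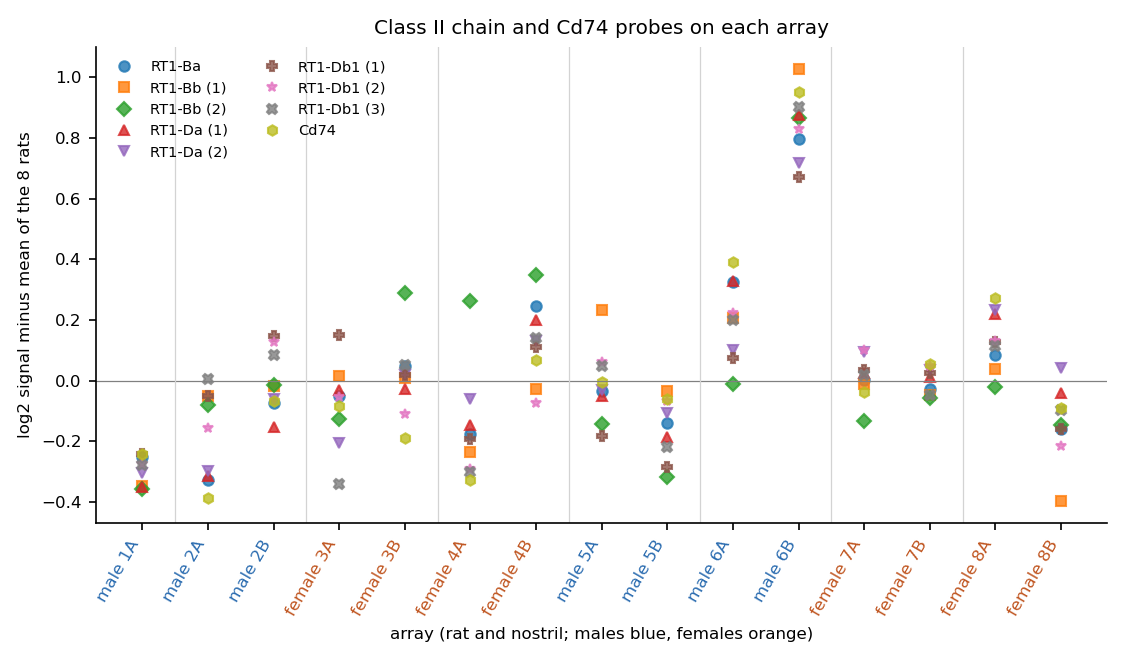
Level of each tested class II chain probe and of Cd74 on each of the 15 arrays, as log2 signal minus the mean of the 8 rat means of that probe (y axis), with arrays in rat order (x axis) and numbers in brackets telling probes of 1 gene apart. All 9 points of array male 6B lie above those of every other rat, and those of male 1 lie below 0.

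Signal was generally higher on 6B, so the class II values were set beside the rest of the array. Array 6B exceeded 6A for 67.5% of all tested probes, with a median difference of 0.08, and for 43 of 46 members, with a median of 0.13. For the class II and Cd74 probes it did so for 9 of 9, with a median of 0.61 and a range of 0.47 to 0.88. For the 27 heavy chain probes the median was 0.10. In the other rats with both nostrils, nostril B exceeded nostril A for between 3 (male 5, where 38.9% of all tested probes did) and 41 (female 4, where 54% did) of the 46 members. The median over members in female 4 was 0.19.

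The DO genes, whose product restrains peptide exchange on class II molecules, were detected on the same single array. RT1-DOa had -0.81 on 6B, and between the floor and -2.47 on the other 14 arrays, where it was not called detected. RT1-DOb had -0.29 on 6B, -2.54 on 6A and at most -2.89 elsewhere. Neither gene entered the tests, and with 1 detecting array in the males and 0 in the females no fold was computed.

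B cell markers were high on that array as well. Of the B cell markers Cd79a, Cd79b, Ms4a1 and Cr2, 3 had a probe and all 3 had their highest rat mean in male 6. Ms4a1, a B cell surface protein, was detected on 6B alone at -1.29. Cr2 had 0.36 on 6B, and its other detecting arrays, 2B and 4A, had -2.21 and -2.26. Cd79b, the signalling partner of the B cell receptor, was detected on all arrays, with 3.04 on 6B, 0.54 on 6A and -1.46 to 0.44 on the others. The summed level of the B cell list was 5.78 array medians in male 6, 1.15 to 1.27 in the other males and 0.581 to 1.25 in the females, and within male 6 it was 9.91 on 6B and 1.66 on 6A.

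Other blood and immune lists were mixed. The 3 dendritic cell markers with a probe summed to 5.66 in male 6 and at most 4.04 in another rat, but this was 8.16 on 6B and 3.16 on 6A, and Flt3 was not detected on either. Ccr7, which guides cells to lymph nodes, was detected on 6B alone at -1.44. The 7 T cell markers summed to 42.3 in male 6 against 23.2 to 33.1 in the other males and 28.7 to 35.6 in the females, and within male 6 to 50.4 on 6B and 34.3 on 6A. Of these 7 genes, 3 (Cd3d, Cd3g and Cd5) had their highest rat mean in male 6, whereas Cd3e was highest in female 8, Cd4 in male 5 and not detected on 6B, Cd8a in male 1, and Cd2 was detected on 0 arrays. Red blood cell genes (Hbb and Alas2) summed to 1380 in male 6 and 101 to 862 in the others, and were at 1380 on both 6A and 6B. The macrophage list did not single out male 6, at 192 within a range of 146 to 199 over the rats. The neutrophil list was lower in male 6, at 18.4, than in the other males, at up to 28.8, and was 9.11 to 25.1 in the females. What part these cells had in the class II levels was not tested.

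**Figure D2:**
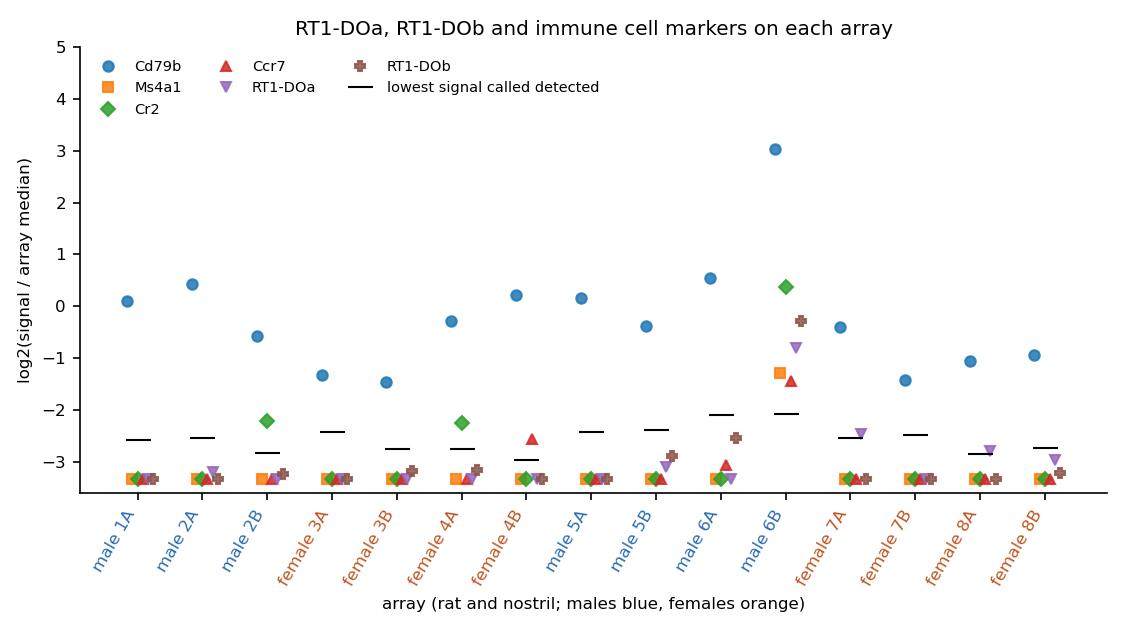
Levels of RT1-DOa, RT1-DOb, the B cell markers Cd79b, Ms4a1 and Cr2 and the dendritic cell marker Ccr7 as log2(signal / array median) (y axis) on the 15 arrays (x axis), with a dash at the lowest signal called detected on each array. Ms4a1, Ccr7, RT1-DOa and RT1-DOb rise over the dash and are called detected on array male 6B alone, although RT1-DOa lies just over it on females 7A and 8A, and Ccr7 on female 4B, without being called detected.

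In the class I branch the immunoproteasome subunits had lower means in females, without passing the test. Psmb9 had levels of 5.14, 5.25, 5.21 and 5.53 in males 1, 2, 5 and 6 and of 4.72, 4.57, 5.20 and 5.12 in females 3, 4, 7 and 8. Females 3 and 4 were low, female 8 lay just below the lowest male, and female 7 lay inside the male range. The female mean was lower by 0.38 on the log2 scale (SE 0.15), which is 1.30-fold, with an adjusted p of 0.232 by limma and an exact permutation p of 0.0571. With slide as a block, resting on 3A as the only female array of slide 1, the female minus male difference was -0.42.

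Psmb8 had 3.62, 3.69, 3.57 and 4.11 in males 1, 2, 5 and 6 and 3.31, 3.23, 3.52 and 3.49 in females 3, 4, 7 and 8. No female reached the lowest male, but the gap between female 7 and male 5 was small beside the spread within each sex. The female mean was 3.39 ± 0.14 and the male mean 3.75 ± 0.25 (SD, n = 4 rats per sex), with an adjusted p of 0.196 by limma. The female minus male difference was nearer 0 without male 6, at -0.24, and with slide as a block, at -0.14. The blocked value rests on slide 1, whose only female array was 3A. The exact permutation p was 0.0286, which is the smallest that 4 against 4 rats can give, two-sided and before any correction for the number of probes.

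For the peptide transporter, 1 subunit had no overlap between the sexes. Tap1 had 2.81, 3.00, 2.91 and 3.07 in males 1, 2, 5 and 6 and 2.74, 2.62, 2.71 and 2.74 in females 3, 4, 7 and 8. All males lay above all females, and the difference was 0.24 (SE 0.07), or 1.18-fold, with an adjusted p of 0.156 by limma. With slide as a block, resting on 3A as the only female array of slide 1, the female minus male difference was -0.11.

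For the other subunit and for tapasin the sexes overlapped. Tap2 had 4.29, 4.41, 4.68 and 4.63 in males 1, 2, 5 and 6 and 4.42, 4.22, 4.49 and 4.48 in females 3, 4, 7 and 8, with means apart by 0.10 (adjusted p 0.642 by limma). Tapbp had 4.10, 4.07, 4.26 and 4.41 in those males and 4.07, 3.95, 4.26 and 4.12 in those females, with means apart by 0.11 (adjusted p 0.589 by limma).

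For B2m, the light chain of all class I molecules, the probes did not run the same way. The probe A_44_P214040 had 8.92, 9.02, 9.03 and 9.11 in males 1, 2, 5 and 6 and 8.85, 8.83, 8.84 and 8.87 in females 3, 4, 7 and 8. The females lay close together and below every male, with means of 8.85 ± 0.02 and 9.02 ± 0.08 (SD, n = 4 rats per sex) and an adjusted p of 0.156 by limma. The other probes for this gene differed by -0.12, -0.11 and +0.07, the last (A_44_P122632) higher in females. With slide as a block, resting on 3A as the only female array of slide 1, the difference of A_44_P214040 turned to +0.08.

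**Figure D3:**
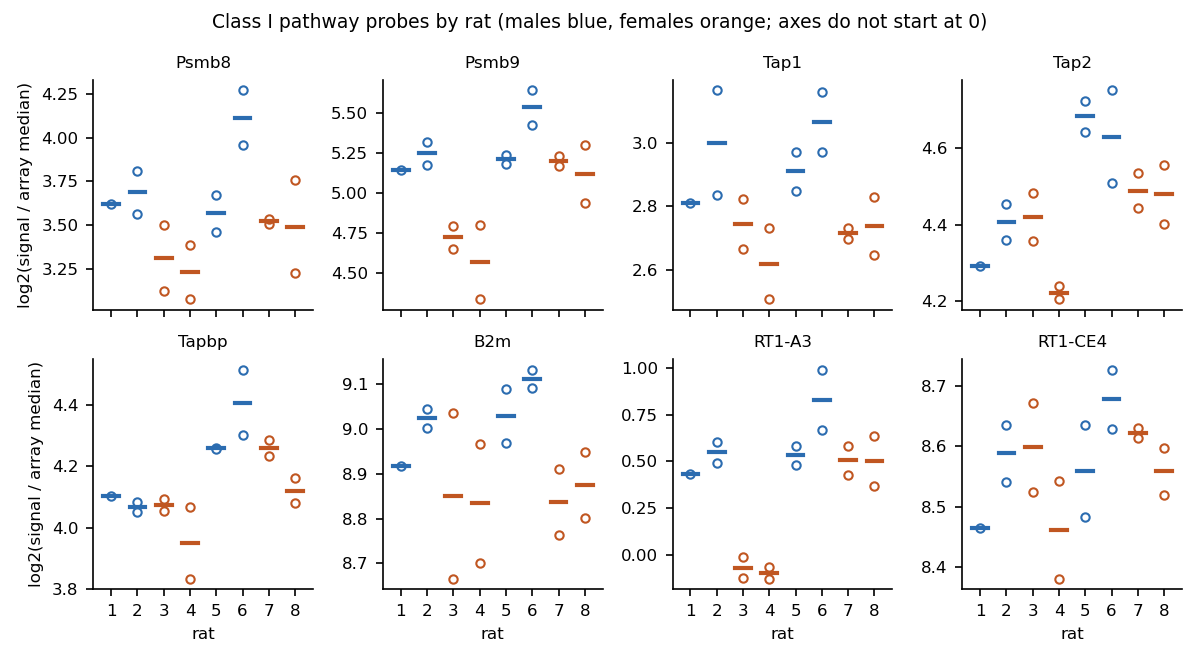
Levels of 8 class I branch probes as log2(signal / array median) (y axes, which do not start at 0) for rats 1 to 8 (x axis), males blue and females orange, where open circles are arrays and bars are rat means. For Tap1, Psmb8 and B2m every female bar lies below every male bar, and for Psmb9 and RT1-A3 females 3 and 4 are the lowest rats.

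Among the 27 tested heavy chain probes female 4 was the lowest rat for 16, against 19.6% of all tested probes, and male 6 the highest for 20. RT1-A3 (A_44_P501234) had levels of 0.43, 0.55, 0.53 and 0.83 in males 1, 2, 5 and 6 and of -0.06, -0.09, 0.51 and 0.50 in females 3, 4, 7 and 8. Females 3 and 4 fell below all other rats, and both nostrils of each lay between -0.12 and -0.01. The female mean was lower by 0.37 (SE 0.17) with an adjusted p of 0.289 by limma. The female minus male difference was -0.23 after normexp background correction and -0.51 with slide as a block. The blocked value rests on slide 1, whose only female array was 3A. Females 7 and 8 lay inside the male range.

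RT1-T24-1, a nonclassical gene, had 1.90, 1.79, 1.98 and 2.42 in males 1, 2, 5 and 6 and 1.50, 1.78, 1.53 and 1.78 in females 3, 4, 7 and 8. The sexes met without crossing, between male 2 and females 4 and 8. RT1-CE10 had 0.34, 0.25, 0.03 and 0.53 in those males and -0.09, -0.25, 0.07 and -0.04 in those females, with male 5 inside the female range. The means differed by 0.37 for RT1-T24-1 (SE 0.14, adjusted p 0.219 by limma) and by 0.36 for RT1-CE10 (SE 0.12, adjusted p 0.188 by limma), lower in females. For RT1-T24-1 the female minus male difference was -0.24 without male 6 and -0.15 with slide as a block. For RT1-CE10 it was -0.17 after normexp background correction and -0.29 with slide as a block. The blocked values rest on slide 1, whose only female array was 3A.

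The RT1-M genes are nonclassical, and the mouse relative of RT1-M3 is known for showing bacterial formyl peptides. RT1-M3 (today RT1-M3-1) had 2.72, 2.94, 2.90 and 3.27 in males 1, 2, 5 and 6 and 2.58, 2.54, 2.98 and 3.08 in females 3, 4, 7 and 8. The detected RT1-M6-2 probe had 8.01, 8.03, 8.21 and 8.31 in those males and 8.00, 7.91, 8.26 and 8.09 in those females. In both, females 3 and 4 were the lowest and male 6 the highest, and the sexes overlapped.

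The RT1-CE genes and RT1-S3 also encode heavy chains. RT1-CE2 (A_44_P107372) had 8.56, 8.66, 8.82 and 8.93 in males 1, 2, 5 and 6 and 8.61, 8.50, 8.80 and 8.65 in females 3, 4, 7 and 8. RT1-CE1 had 8.24, 8.36, 8.47 and 8.61 in those males and 8.23, 8.16, 8.43 and 8.33 in those females. For both, male 6 was the highest and female 4 the lowest.

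RT1-CE4 (A_44_P440517) had 8.47, 8.59, 8.56 and 8.68 in males 1, 2, 5 and 6 and 8.60, 8.46, 8.62 and 8.56 in females 3, 4, 7 and 8. RT1-S3 (A_44_P128151) had 8.14, 8.23, 8.38 and 8.49 in those males and 8.32, 8.25, 8.33 and 8.25 in those females. Male 6 was the highest for both, and the sexes overlapped. Over all 27 tested heavy chain probes the range over rats ran from 0.17 to 0.92 with a median of 0.45, against a median of 0.47 over all tested probes. The class II chain probes had ranges of 0.62 to 0.97 with a median of 0.81.

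A single member was higher in every female than in every male. RT1-Cl (A_44_P554917) had 6.64, 6.75, 6.59 and 6.72 in males 1, 2, 5 and 6 and 6.89, 6.87, 6.88 and 6.84 in females 3, 4, 7 and 8. The females were tightly grouped above the males, by 0.19 between the means (SE 0.05), or 1.14-fold. The adjusted p was 0.129 by limma, the smallest of any member in this comparison. The other RT1-Cl probe (A_44_P554925), which the array also lists for RT1-A1, RT1-A2 and RT1-CE5, had its highest level in male 6 and its lowest in female 4, the opposite order of the sexes at the ends.

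Taking all members, no sex difference passed the threshold of the study, a false discovery rate of 1%. Of the 46 probes 0 were called at 1% and 0 at 5% by limma, while 0.0435% of all tested probes were called at 1%. At an unadjusted p under 0.05 limma gave 10 members, 9 of them lower in females, against 17.1% of all tested probes. Without female 3 it gave 5, against 13.2%, and without female 4 also 5, against 12.2%. Without male 1 it gave 12, against 18.1%. The kind of test the methods name, a t statistic, here with equal variances assumed, gave 5 at that level, against 16.2% of all tested probes, and 0 at 1% after adjustment. Every female was below every male for 5 members (Psmb8, Tap1, RT1-T24-1, and 1 probe each of B2m and RT1-A2), against 2.52% of all tested probes, and above for 1, against 8.82%.

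The mean was lower in females for 36 of the 46 members (78.3%), against 47.9% of all tested probes, and the median difference was -0.10, against 0.01. By role, females were lower for 22 of 27 heavy chain probes, 3 of 4 B2m probes, both immunoproteasome probes, all 3 transport and loading probes, Cd74, RT1-Ke4, and 4 of 8 class II chain probes. The class II chain differences ran from -0.17 to 0.10, with a smallest adjusted p of 0.659 by limma. The count of 36 depended on male 6, without which 25 of 46 members were lower in females. The member median was then -0.03, against 0.01 for all tested probes. Without female 4 it was -0.06, against 0.02. With slide as a block, resting on 3A as the only female array of slide 1, the count was also 25. The member median there was -0.01, against 0.05. For these settings the share of all tested probes lower in females was not computed.

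Among the markers of other cells, 1 gene passed 5% for sex and 0 passed 1%, where 0.0725% and 0.0435% of all tested probes did. The 4 neutrophil genes tested were all lower in females, with sums of 9.11 to 25.1 array medians against 18.4 to 28.8 in males. For 2 of them every female was below every male, as for 2.52% of all tested probes. The gene past 5% was Fcnb, a ficolin of neutrophils, lower by 1.09 with an adjusted p of 0.0448 by limma. The 3 sustentacular genes, whose supporting cells surround the neurons, were all higher in females, with sums of 2830 to 3220 against 2420 to 2970. For 2 of them, Ugt2a1 (by 0.43, adjusted p 0.0823 by limma) and Cyp2g1 (by 0.31, adjusted p 0.0978 by limma), every female was above every male. This held for 8.82% of all tested probes. Of 8 macrophage genes 6 were lower in females, and of 5 olfactory neuron genes 1 was, where 47.9% of all tested probes were. What part these cells had in the sex values of the members was not tested.

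**Figure D4:**
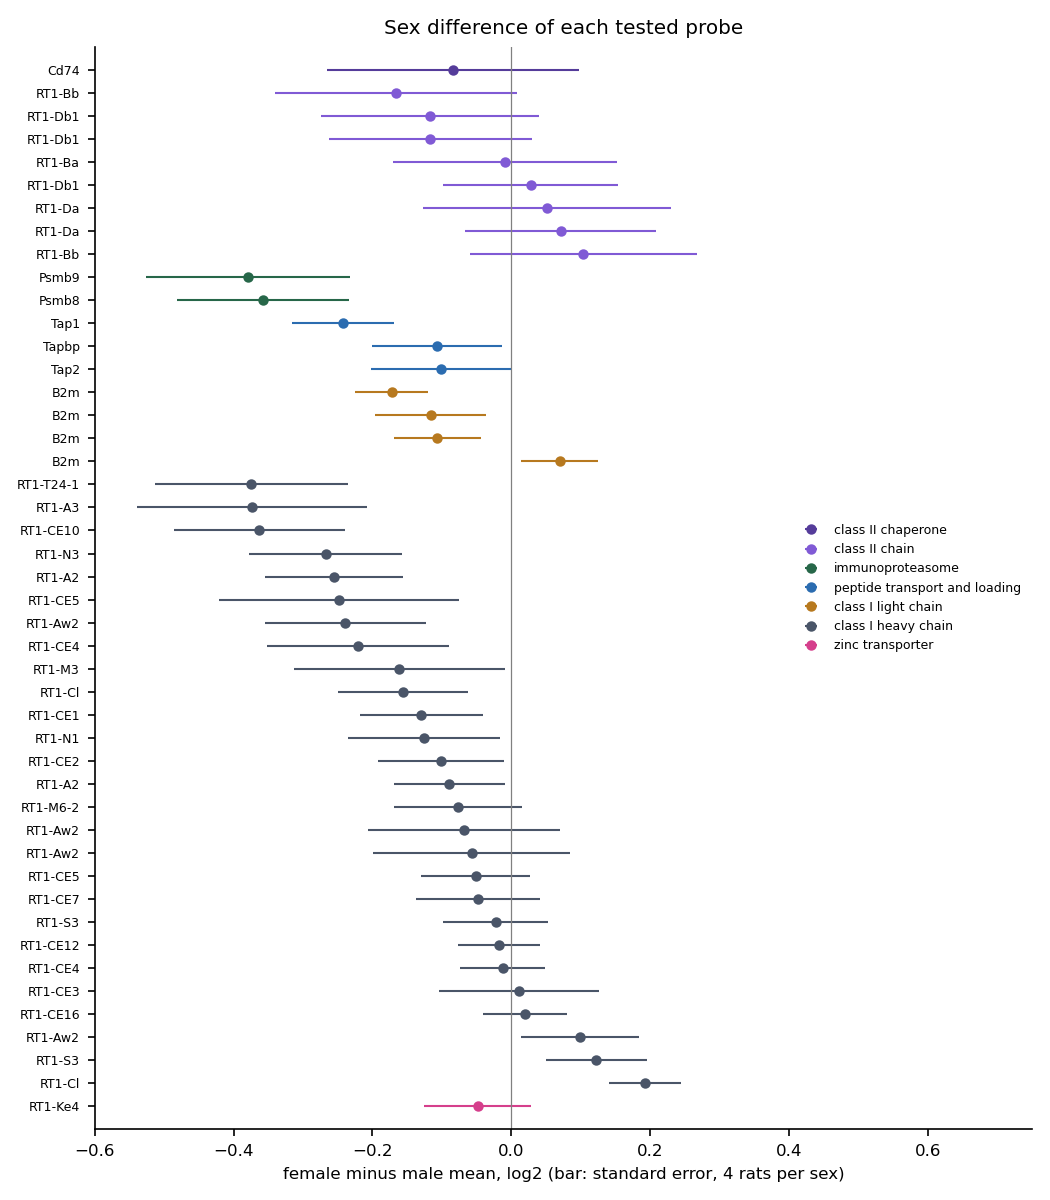
Female minus male mean on the log2 scale (x axis) for each of the 46 tested probes, ordered by role and size (y axis, gene names), with bars for the standard error from limma over 4 rats per sex. Differences run from -0.38 to 0.19, and heavy chain, immunoproteasome and transport probes lie mostly left of 0 while class II chain probes lie on both sides.

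Rats of the same sex were compared against the spread between their nostrils. In the F-test over rats within each sex, which male 1 with its single array did not enter, 0 members were called at 1%, where 2.82% of all tested probes were called. At 5%, 7 members were called, against 14.6% of all tested probes, and at an unadjusted p under 0.05, 19 were, against 35.3%. The 7 depended on which rats entered, with 1 member (6.69% of all tested probes) without rat 7 and 12 (18.5%) without rat 3. The 7 were RT1-CE4 (A_44_P440514), RT1-CE3, RT1-A3, RT1-M6-2, RT1-M3, RT1-CE1 and RT1-CE2, all for heavy chains, with F from 6.44 to 13.1 and adjusted p from 0.0451 to 0.0112 by limma. 

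RT1-CE4 (A_44_P440514) had the largest F. Its levels were 2.16, 2.19, 2.42 and 2.52 in males 1, 2, 5 and 6 and 1.98, 1.84, 2.38 and 2.21 in females 3, 4, 7 and 8, with a spread between nostrils of 0.07 (SD). Rats 5 to 8 were all above rats 1 to 4. The same split held for 8 members (RT1-CE4, RT1-CE3, RT1-M6-2, 2 RT1-Aw2 probes, Tap2, Tapbp and Cd74), against 6.75% of all tested probes, and the reverse for 0, against 4.61%. For this split, rats and slides cannot be told apart. With slide as a block, which leaves the differences between rats on a shared slide, 0 members passed at 5%, where 0.0326% of all tested probes did. There, 4 members had an unadjusted p under 0.05, against 14.7%, and no adjusted p was below 0.271 by limma.

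With male 6 included, class II probes had a wider spread between nostrils. The median SD between nostrils of a rat was 0.21 for class II chain probes, 0.10 for heavy chain probes and 0.12 for all tested probes. Their F values for rats had a smallest adjusted p of 0.0535 (RT1-Da, A_44_P367688), and Cd74 had 0.0663, both by limma. In this test the gap between the nostrils of male 6, at a median of 0.61 for class II chain probes, counts as error. The SD includes that gap and was not computed without male 6.

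No member passed the test between nostrils A and B. In the 7 rats with both, 0 members were called at 1% by limma, against 0.0% of all tested probes, and 1 had an unadjusted p under 0.05, against 5.89%. That was RT1-T24-1, lower in nostril B by 0.25 with an adjusted p of 0.781. The class II chain probes had B minus A means of 0.05 to 0.17, and of -0.08 to 0.07 over the 6 rats without male 6. The labels do not say that A is the same side in each rat, so a left to right difference was not examined.

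Levels across rats were compared for 5 pairs of genes by exact permutation over the 8 rat means, two-sided, with adjustment over the 5. Cd74 and RT1-Da had Pearson's r 0.92 (p 0.000496, adjusted p 0.00124) and Spearman's rho 0.98 (p 0.0004, adjusted p 0.00198). Leaving out male 6 and female 8, the rats farthest from the median of Cd74, gave r 0.81 (permutation p 0.0472, adjusted p 0.118), and leaving out male 6 alone gave 0.88. Cd74 and RT1-Ba had r 0.94 (permutation p 0.00928, adjusted p 0.0155) and rho 0.62 (permutation p 0.115, adjusted p 0.144). Without male 6 and female 8 r was 0.67, and without male 6 alone 0.61, so that relation rested on male 6.

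In the class I branch, Tap1 and the B2m probe A_44_P214040 had r 0.97 (permutation p 0.000198, adjusted p 0.000992) and rho 0.95 (permutation p 0.00114, adjusted p 0.00285), with r 0.92 without males 2 and 6. This did not hold for each B2m probe. With Tap1, A_43_P11442 and A_44_P535612 both had r 0.79 (permutation p 0.0141 and 0.0179, adjusted p 0.0176 and 0.0224), and A_44_P122632 had r -0.10 (permutation p 0.831).

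Tap1 and Psmb9, neighbours on the chromosome, had r 0.81 (permutation p 0.0136, adjusted p 0.017) and rho 0.83 (permutation p 0.0154, adjusted p 0.0256). Without males 2 and 6 their r was 0.68 (permutation p 0.143), so it rested in part on those rats. Across the branches, Cd74 and Tap1 had r 0.48 (permutation p 0.239) and rho 0 (permutation p 1), and r was -0.35 without male 6.

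Each set of slides holds 4 rats, too few for an r of its own. With levels centred within slides 1 and 2 and within slides 3 and 4, r was 0.86 for Cd74 with RT1-Da, 0.96 for Cd74 with RT1-Ba, 0.86 for Tap1 with Psmb9, 0.97 for Tap1 with the B2m probe A_44_P214040 and 0.46 for Cd74 with Tap1. Both genes of a pair were read on the same arrays, with the same scaling.

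**Figure D5:**
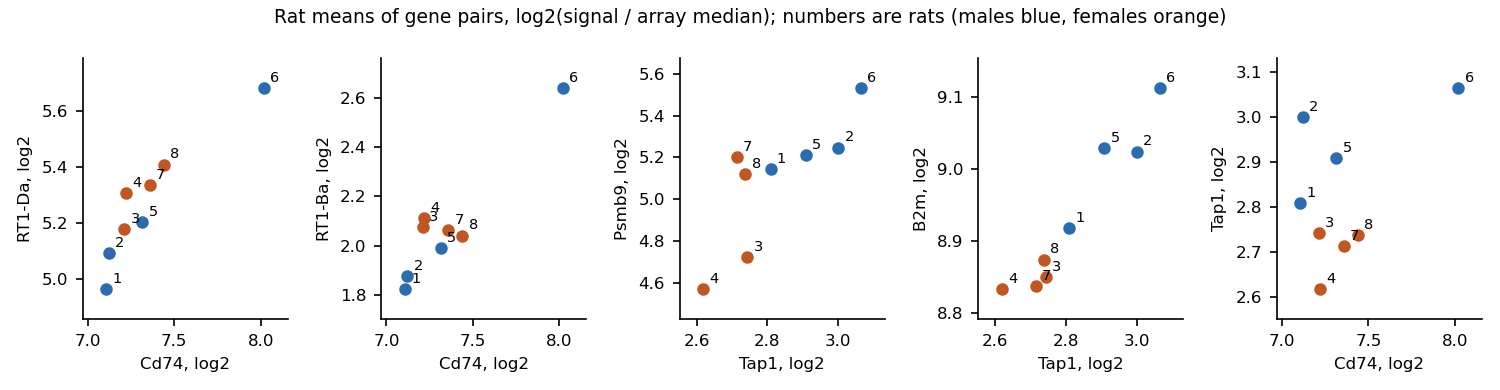
Rat means of the 5 gene pairs as log2(signal / array median) on both axes, each point 1 rat with its number, males blue and females orange. Male 6 stands apart at the right in the Cd74 panels, and with Tap1 on the x axis the females lie to the left of the males.

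Genes that work beside the MHC were mostly expressed, and none passed the test for sex. Of 42 such genes fixed as a list (chaperones, other proteasome subunits, cathepsins, class I like molecules, transcription factors and costimulators), 33 had a probe and 31 were expressed. Of their 43 tested probes, 0 were called for sex at 1% by limma, with an unadjusted p under 0.05 for 6, against 17.1% of all tested probes. In the F-test over rats 12 were called at 5%, against 14.6%, and 2 at 1%, against 2.82%, both for Procr, a class I like receptor of protein C, at levels of 0.70, 0.26, 0.79 and 1.76 in males 1, 2, 5 and 6 and 0.48, 1.96, 0.22 and 0.33 in females 3, 4, 7 and 8. Procr was high in male 6 and female 4, with an adjusted p of 0.00308 by limma for that probe. With slide as a block 0 of the 43 passed at 5%, against 0.0326%, the smallest adjusted p being 0.0671. Male 6 was the highest rat for 6 of the 43, against 13.8% of all tested probes. The costimulator Cd80 was detected on 0 arrays.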

How the data were processed

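Total RNA labelled with Cy3 was hybridised to 15 one-colour Agilent whole rat genome arrays. The authors scanned them with Feature Extraction, and the deposited intensities are background-subtracted and not scaled between arrays. The deposited ratio table was made by the authors in GeneSpring as signal over array median over probe median. It matched the intensities within 2% for 100% of values over 19037 probes.

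Spots marked as outliers were left out (61 to 175 per array) and spots of a probe averaged. The processed signal was divided by the array median, floored at 0.1 of it, and taken as log2. Probes detected on at least 7 arrays were tested (27574) with limma 3.58.1 in R 4.3.3 (trended eBayes, Benjamini-Hochberg over all of them, 1% false discovery rate). Sexes were compared over 8 rat means, rats within a sex by an F-test over 14 arrays of 7 rats, and nostrils with rat as a block. Single probes and correlations were tested by exact permutation (scipy 1.17.1). The fits were tested on simulated data. The number of arrays limits the precision. Arrays give no count of molecules.

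Members and gene lists were chosen with earlier results of these data known. Values are given in full for the brightest tested probe of each named gene outside the heavy chains, for the 5 brightest heavy chain probes, for detected RT1-M probes, for the 5 members with the largest sex difference and the 5 with the largest range over rats. RT1-Cl, RT1-CE4 (A_44_P440514) and the marker and partner genes named were chosen after their values were seen. Gene names are those on the array, and 39 of 55 member probes had an accession in the RefSeq table. Probe positions are those of rn3 in the files. No rn3 annotation was used, so exons are not given. Alternatives were 75th percentile and quantile scaling, normexp (offset 50), floors of 0.5 and 0.01, no detection filter or 11 arrays, the ratio table, eBayes without trend, slide as a block, arrays as independent, nostril A alone, no rat block, another detection call, and each rat left out. A marker gene of the lists is not reported here and was left out of its list's sum.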

Additional observations from a re-analysis of the deposited data

Results flagged for a closer look

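In groups of 4 rats, a sample was singled out when its gap to the nearest other, over the range of the group, exceeded Dixon's critical value. Over 22 expressed member probes and 11 marker lists, 66 groups were checked and 4 passed, where chance gives about 1 in 20. No member probe was among them. Male 6 stood apart among the males for the summed B cell markers (gap over range 0.974), through array 6B. Male 1 had the lowest summed macrophage markers of the males (0.868), at 146 array medians against 192 to 199. Female 4 had the highest summed neutrophil markers (0.844), at 25.1 against 9.11 to 11.6, and red blood cell markers (0.860), at 831 against 101 to 203, among the females.

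No member differed between the sexes in its nostril difference. The smallest adjusted p of that interaction was 1.0 by limma, with 0 members at 5% and 1 with an unadjusted p under 0.05, against 2.36% of all tested probes.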

How the results depend on the processing

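Across 21 settings for sex, 17 for rats and 17 for nostrils, 0 members passed 1%, and leaving out each rat in turn also gave 0 to 0. The smallest adjusted p by limma over all settings was 0.014 for sex, 0.0101 for rats and 0.418 for nostrils. That for sex came from taking the 15 arrays as independent, which counts the nostrils of a rat as separate animals. It was the only setting for sex with members past 5%, 6 of 46, against 12.6% of all tested probes. Members passing 5% in the F-test over rats numbered 7 (all probes 14.6%), against 4 with 75th percentile scaling (16.1%), 4 with a floor of 0.5 (13.4%), 3 without the detection filter (6.64%), 3 from the ratio table (10.5%), 3 without trend (10.6%), 0 with slide as a block (0.0326%), and 1 (without rat 7, 6.69%) to 12 (without rat 3, 18.5%) when 1 rat was left out. Without rat 2 there were 3 (6.67%) and without rat 8 there were 4 (7.78%). The causes were not tested. Members lower in females numbered 25 to 41, with 25 both without male 6 and with slide as a block. Members with every female above every male numbered 0 after normexp and 5 without male 6, where 7.71% and 11.6% of all tested probes did so, and those with every female below numbered 9 after normexp (3.75%). The 36 members highest in male 6 became 31 with nostril 6A alone (11.3% of all) and 40 with 6B alone (22.6%). These settings and those without male 6 were chosen after seeing the data.

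With slide as a block, the sex value rests on slide 1, whose only female array was 3A. The difference between the sexes then turned to 0.08 for B2m. It shrank to -0.11 for Tap1, -0.14 for Psmb8, -0.15 for RT1-T24-1 and -0.29 for RT1-CE10. For Psmb9 and RT1-A3 it grew, to -0.42 and -0.51. Without male 6 the difference was -0.24 for both Psmb8 and RT1-T24-1. Correlations weakened to 0.81 (Cd74 with RT1-Da), 0.67 (Cd74 with RT1-Ba) and 0.68 (Tap1 with Psmb9) without 2 rats, and to 0.61 (Cd74 with RT1-Ba) and 0.70 (Tap1 with Psmb9) without male 6. Cd74 with Tap1 turned to -0.31 without 2 rats and -0.35 without male 6. With a looser detection call, 50 members were expressed in place of 46. Tap1 with B2m turned to -0.10 with the B2m probe A_44_P122632, added after seeing the data. Of 5 undetected members, and of 4 others on the arrays that did not detect them, only a bound is known.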

Other observations

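Probes of the same system carried older names on the array and so fell outside the naming rule. Hla-dma, today RT1-DMa, the alpha chain of the DM peptide editor that DO restrains, was detected on all 15 arrays at levels of 5.34 to 6.01, highest on array 6B and next on array 5A at 5.76. H2-T18, today RT1-T18, had a probe detected on 15 arrays at -2.17 to -1.01 and another detected on 11. C2ta, today Ciita, the master regulator of class II genes, was detected on 0 arrays and lay at the floor on each.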
